A study of Mus musculus with 32 samples.

Results

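Hox genes encode homeodomain transcription factors that sit in 4 clusters, Hoxa, Hoxb, Hoxc and Hoxd, and that give cells of the embryo their position along the head-to-tail axis. Within a cluster, the genes of low paralogue number at the 3′ end act from more anterior levels, and the genes of high number at the 5′ end act only near the tail. A paralogue group is the set of genes at the same place in different clusters. In the gut, Hox genes are known both from the mesenchyme that forms the muscle wall, where Hoxa13 and Hoxd13 mark the hindgut, and from the neural crest cells that form the enteric nervous system. The members described here are 38 genes named by their symbol alone (10 in Hoxa, 10 in Hoxb, 9 in Hoxc and 9 in Hoxd) of 51912 genes in the table, and no measured value was used to choose them. Of these, 22 belong to paralogue groups 1 to 8 and are called anterior members, and 16 belong to groups 9 to 13 and are called posterior members.

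Nuclear RNA came from the longitudinal muscle and myenteric plexus of small intestine (SI) and colon of C57BL/6 mice kept under specific pathogen-free conditions, which had received AAV9-CaMKII-EGFPKASH, a virus that marks nuclei with EGFP, by vein 5 weeks earlier. EGFP+ nuclei are called neuronal and EGFP- nuclei non-neuronal, and the mice came from 2 facilities, the University of Bern and the Francis Crick Institute. The 8 groups, with 4 libraries each, were Bern colon neuronal, Bern colon non-neuronal, Bern SI neuronal, Bern SI non-neuronal, Crick colon neuronal, Crick colon non-neuronal, Crick SI neuronal and Crick SI non-neuronal. All mice, those that gave the non-neuronal nuclei included, carried the virus, and only nuclei in which the CaMKII promoter drove enough EGFP entered the neuronal sort. The labels do not say whether replicates are separate animals, so the p-values measure only the spread between these libraries.

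The library totals ran from 2394513 to 8350887 counts. They were 2394513 to 4618395 in Bern and 3788206 to 8350887 in Crick libraries, so a low member is measured less precisely in Bern. Levels are given as CPM, the count scaled to a library total of 1000000, and a group with no count for a gene could still hold up to 3 counts over its 4 libraries, which is 0.122 to 0.22 CPM. All 14 pan-neuronal markers were higher and all 10 smooth muscle markers lower in neuronal than in non-neuronal nuclei. Pan-neuronal markers summed to 4572 to 5885 CPM in Bern colon neuronal libraries, against 899 to 2055 CPM in Bern colon non-neuronal libraries, and to 3177 to 3368 CPM in Crick colon neuronal libraries, against 198 to 403 CPM in Crick colon non-neuronal libraries. There were 6 libraries that stood apart, by mitochondrial RNA (Crick SI non-neuronal replicate 2 at 23.6% and Crick SI neuronal replicate 2 at 15.99%) or by markers of other cells (Bern colon non-neuronal 1 and 2, Bern SI non-neuronal 1 and Crick colon non-neuronal 3). Exons of 15 members share bases with another gene, and the strand of the counting was not given, so reads of such pairs cannot be told apart. In Hoxd3 62.3% and in Hoxd4 52.3% of exon bases are shared with each other or Gm28230, and in Hoxb3 52.9% with the antisense gene Hoxb3os.

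All 32 libraries held Hox RNA. The 38 members summed to 346 to 987 CPM per library, or 1486 to 6604 counts. What differed between groups was which part of the clusters supplied it. Of all Hox counts, posterior members made up 0.566 to 4.17% in Bern colon neuronal libraries, against 19.5 to 53.7% in Bern colon non-neuronal libraries. The same share was 0.88 to 1.77% in Crick colon neuronal libraries, against 30.3 to 54.0% in Crick colon non-neuronal libraries. In SI it stayed at 0 to 0.471% in Bern neuronal, 0.044 to 0.631% in Bern non-neuronal, 0.094 to 1.26% in Crick neuronal and 1.90 to 2.83% in Crick non-neuronal libraries. Every colon non-neuronal library thus lay above every library of the other 6 groups in posterior share. The 3′ end of the clusters, paralogue groups 1 to 3, supplied 62.8 to 70.6% of Hox counts in colon neuronal and 46.1 to 63.8% in SI neuronal libraries, against 14.6 to 31.5% in colon non-neuronal and 13.8 to 36.4% in SI non-neuronal libraries. The widest 95% Wilson interval of any of these shares was 2.51 percentage points to either side, for counting error only.

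**Figure D1:**
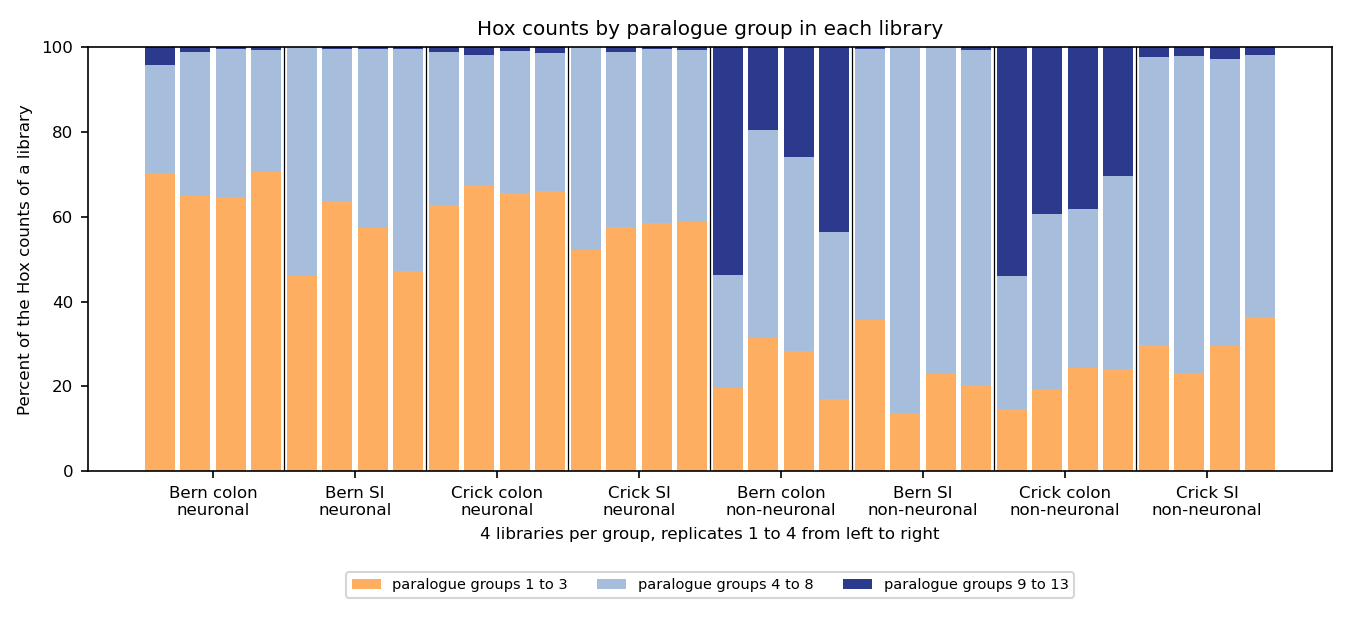
Percent of each library's Hox counts that came from paralogue groups 1 to 3, 4 to 8 and 9 to 13, for the 32 libraries by group. Groups 9 to 13 reach 19.5 to 54.0% in colon non-neuronal libraries and stay at or under 4.17% in every other library.

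**Figure D2:**
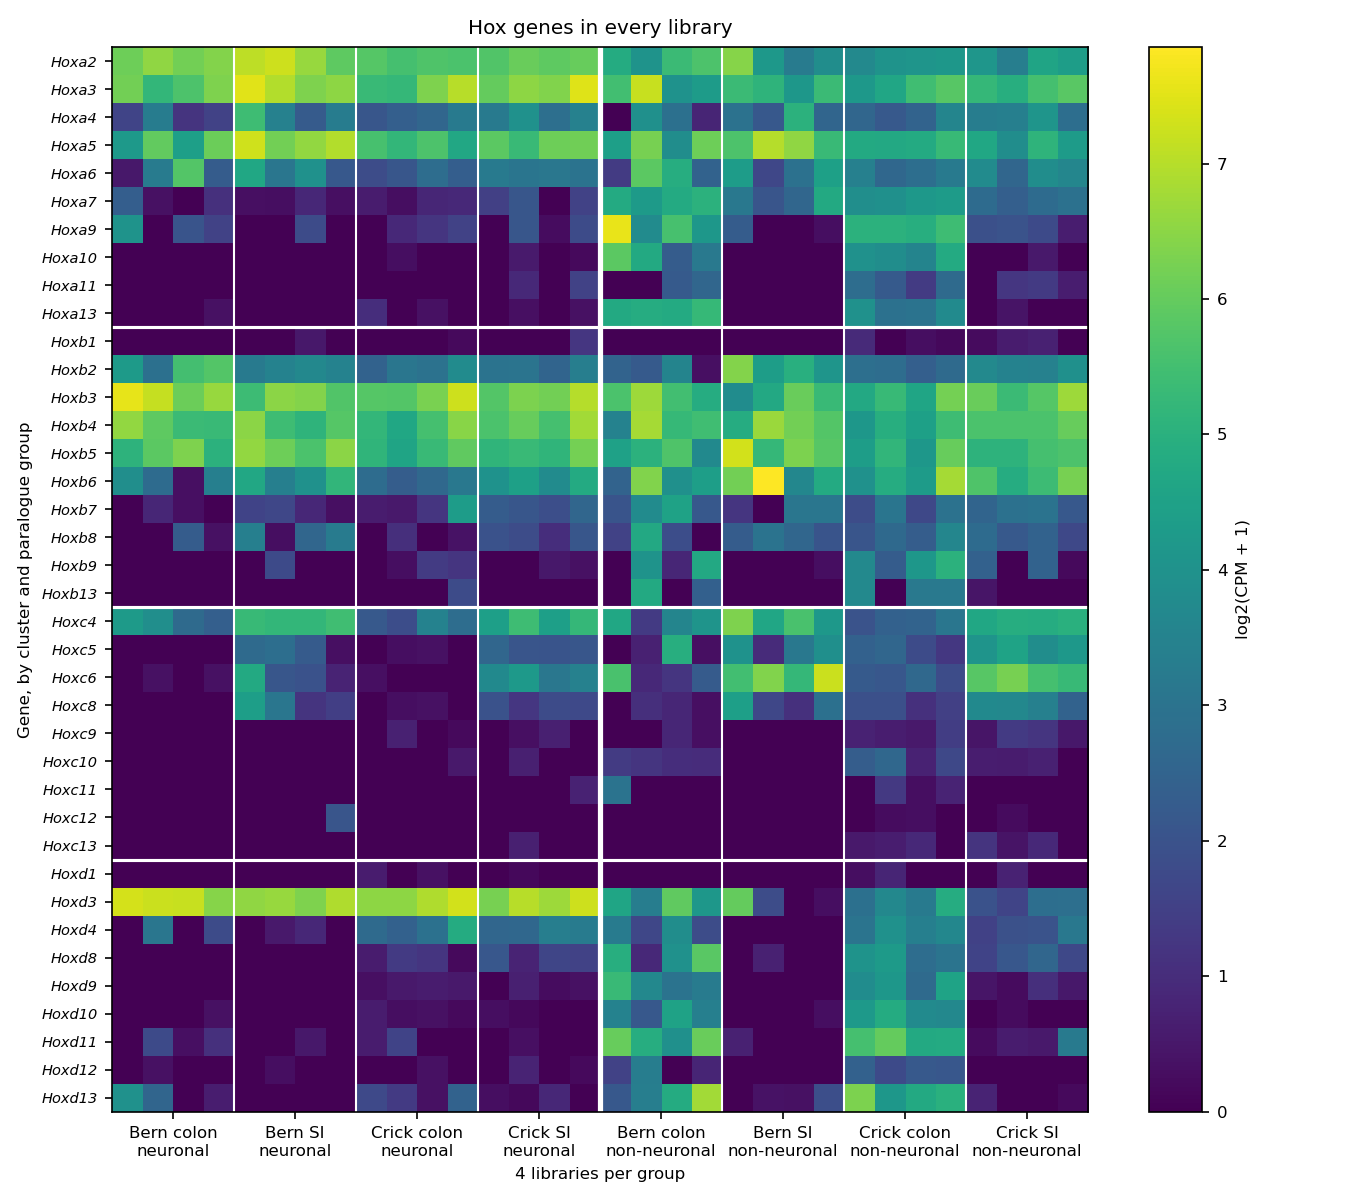
Level of the 38 members (rows, by cluster and paralogue number) in the 32 libraries (columns, by group), as log2(CPM + 1). The block of posterior Hoxa and Hoxd members is bright in colon non-neuronal libraries, and the Hoxc4 to Hoxc8 block is dark in colon neuronal libraries.

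Neuronal and non-neuronal nuclei differed at both ends of the clusters. Among 31 members that passed the filter on low counts, 4 were higher and 13 lower in neuronal than in non-neuronal nuclei over both segments and facilities, 16 libraries a side, at an adjusted p under 0.05. Of all 21521 genes tested, 43.5% were called, 21.9% higher and 21.6% lower, so the share of members called is near the background, and what follows describes which members they were. Every adjusted p here is from edgeR's quasi-likelihood test with Benjamini-Hochberg adjustment over all genes of the fit, and each fold change is log2 ± its standard error. The 4 higher members lie in paralogue groups 2 and 3: Hoxa2, Hoxa3, Hoxb3 and Hoxd3. The 13 lower members run from Hoxc5 and Hoxb6 to Hoxd13. Of these, Hoxa7, Hoxb9, Hoxd8, Hoxd10 and Hoxd11 passed the filter through the non-neuronal libraries, so their direction is a description. The median log2 fold change of the 20 anterior members tested was -0.13, against -0.01 over all genes. In bulk nuclei, fewer cells of a type and less RNA per cell cannot be told apart.

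The promoter windows of members whose levels set neuronal and non-neuronal nuclei apart, or colon and SI apart, are shown here: Hoxa2 and Hoxd3 (higher in neuronal), Hoxa7 (lower in neuronal), Hoxc4 (lower in colon) and Hoxa13 and Hoxd13 (higher in colon non-neuronal). Each is the 250 bases before the RefSeq gene start (GRCm38.p6), on the gene's strand, 5′ to 3′. Capitals mark matches to TTTATG, a caudal (CDX) type site, to TGATTNAT, a PBX-HOX type site, or to AGGTCA, a nuclear receptor site of the kind retinoic acid receptors bind, each on either strand.
Hoxa2: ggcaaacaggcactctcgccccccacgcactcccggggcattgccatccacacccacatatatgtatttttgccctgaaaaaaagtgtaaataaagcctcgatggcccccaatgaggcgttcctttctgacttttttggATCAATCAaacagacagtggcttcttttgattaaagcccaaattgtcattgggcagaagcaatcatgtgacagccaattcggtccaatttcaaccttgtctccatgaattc
Hoxd3: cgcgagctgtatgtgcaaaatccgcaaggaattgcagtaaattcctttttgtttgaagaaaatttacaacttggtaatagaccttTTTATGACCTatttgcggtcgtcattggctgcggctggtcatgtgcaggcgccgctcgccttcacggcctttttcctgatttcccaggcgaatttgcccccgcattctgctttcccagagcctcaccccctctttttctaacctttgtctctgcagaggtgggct
Hoxa7: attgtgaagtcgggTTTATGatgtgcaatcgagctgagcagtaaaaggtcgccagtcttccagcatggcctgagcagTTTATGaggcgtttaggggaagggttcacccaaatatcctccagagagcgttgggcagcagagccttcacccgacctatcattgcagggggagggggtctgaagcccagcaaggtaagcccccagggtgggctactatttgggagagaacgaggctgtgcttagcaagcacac
Hoxc4: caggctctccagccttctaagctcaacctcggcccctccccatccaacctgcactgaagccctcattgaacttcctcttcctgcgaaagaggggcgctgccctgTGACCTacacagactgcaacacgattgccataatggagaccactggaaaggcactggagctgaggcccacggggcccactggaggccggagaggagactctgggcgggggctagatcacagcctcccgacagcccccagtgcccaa
Hoxa13: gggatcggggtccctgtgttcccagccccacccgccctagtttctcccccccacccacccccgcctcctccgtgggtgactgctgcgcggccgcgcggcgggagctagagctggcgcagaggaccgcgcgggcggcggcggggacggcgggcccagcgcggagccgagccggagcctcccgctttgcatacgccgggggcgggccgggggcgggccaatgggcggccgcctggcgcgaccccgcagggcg
Hoxd13: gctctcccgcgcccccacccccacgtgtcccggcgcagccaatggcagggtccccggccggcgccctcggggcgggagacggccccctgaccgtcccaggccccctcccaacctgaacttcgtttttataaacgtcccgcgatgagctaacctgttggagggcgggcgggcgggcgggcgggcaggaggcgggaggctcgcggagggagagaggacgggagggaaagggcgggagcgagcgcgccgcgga
The windows are chr6:52164832-52165081 (minus strand) for Hoxa2, chr2:74711743-74711992 (plus) for Hoxd3, chr6:52218574-52218823 (minus) for Hoxa7, chr15:103034145-103034394 (plus) for Hoxc4, chr6:52260881-52261130 (minus) for Hoxa13 and chr2:74667975-74668224 (plus) for Hoxd13. Hoxa2 holds a PBX-HOX match 111 to 104 bases before the start. Hoxd3 holds a caudal match at 165 to 160 bases that overlaps a receptor site at 161 to 156. Hoxa7 holds caudal matches at 236 to 231 and at 173 to 168 bases, and Hoxc4 a receptor site at 146 to 141. Hoxa13 and Hoxd13 hold none of the 3 motifs but 35 and 31 CpG pairs, against 6, 12, 7 and 8 in Hoxa2, Hoxd3, Hoxa7 and Hoxc4. Windows were at hand for 22 members, in 24 windows with a median of 12.5 CpG pairs, against 6 in all 32841 windows. TTTATG was in 5 of 24 Hox windows (20.8%) and 10.8% of all windows, TGATTNAT in 2 (8.33%) and 2.83%, and AGGTCA in 6 (25.0%) and 14.03%. A match is a description of letters, not a shown binding site.

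Hoxd3, which patterns the neck vertebrae in mice, had the largest fold change of the 4 members higher in neurons. It had 162, 149, 147 and 85.2 CPM in Bern colon neuronal libraries, against 23.8, 9.09, 60.3 and 16.9 CPM in Bern colon non-neuronal libraries. In SI, the values were 93.6, 98.9, 80.6 and 121 CPM in Bern SI neuronal libraries, against 62.5, 2.53, 0 and 0.226 CPM in Bern SI non-neuronal libraries. Crick libraries gave 91, 92, 119 and 159 CPM in Crick colon neuronal libraries, against 6.5, 11.7, 8.46 and 28.3 CPM in Crick colon non-neuronal libraries. They also gave 75.4, 129, 103 and 154 CPM in Crick SI neuronal libraries, against 2.94, 2.04, 6.13 and 6.28 CPM in Crick SI non-neuronal libraries. No neuronal library overlapped a non-neuronal one in any of the 4 strata. Only 3.19% of all genes showed that pattern. The log2 fold change was 3.13 ± 0.43 (adjusted p = 1.56e-07). The highest non-neuronal value, in Bern SI replicate 1, was in the library whose pan-neuronal markers summed to 725 CPM, where the other 3 of that group had 36.7 to 81.3 CPM. Bern colon non-neuronal libraries had pan-neuronal sums of 899 to 2055 CPM, and the part of neuronal RNA in these values was not tested.

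Hoxa2, which patterns the hindbrain and the neural crest of the head, followed the same direction. It had 68.2, 93.7, 72 and 84.1 CPM in Bern colon neuronal libraries, against 27.7, 15.4, 39.7 and 49.4 CPM in Bern colon non-neuronal libraries. Bern SI gave 133, 152, 100.2 and 59.8 CPM in neuronal libraries, against 85.8, 17.1, 8.63 and 13.3 CPM in non-neuronal libraries. Crick colon gave 54.6, 45.1, 50.9 and 48.8 CPM in neuronal libraries, against 12.1, 15.4, 16.3 and 17 CPM in non-neuronal libraries. Crick SI gave 51.4, 66.4, 59.8 and 65 CPM in neuronal libraries, against 16.6, 9.18, 23.2 and 19.8 CPM in non-neuronal libraries. The groups did not overlap in 3 of the 4 strata, the exception being Bern SI through its non-neuronal replicate 1. The log2 fold change was 1.61 ± 0.24 (adjusted p = 8.26e-07), and Hoxa2 and Hoxd3 were the 2 members called higher in each of the 4 strata. Hoxa3, which patterns the throat and the thymus, averaged 88 CPM in neuronal libraries and 41.5 CPM in non-neuronal libraries, a log2 fold change of 0.99 ± 0.27 (adjusted p = 0.00254). Hoxb3, its Hoxb counterpart, averaged 89.2 CPM in neuronal libraries and 49.5 CPM in non-neuronal libraries, with 0.79 ± 0.24 (adjusted p = 0.00684). Hoxb3os, which overlaps Hoxb3, went the other way at -2.94 ± 0.66 (adjusted p = 0.000353). Members of paralogue groups 4 to 6 were mostly not called. Hoxb4 averaged 56.9 CPM in neuronal libraries and 48.3 CPM in non-neuronal libraries (0.21 ± 0.26, adjusted p = 0.568), and Hoxa5 62.9 and 43.4 CPM (0.49 ± 0.24, adjusted p = 0.101). Hoxb5 averaged 52.6 and 46.4 CPM, Hoxa4 8.64 and 8.39 CPM, and Hoxa6 10.2 and 13.4 CPM, with log2 values of 0.20 ± 0.25, -0.16 ± 0.46 and -0.51 ± 0.45. Hoxa6 spread from 0.413 to 53.6 CPM in the neuronal and from 1.56 to 57.8 CPM in the non-neuronal libraries of Bern colon alone.

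**Figure D3:**
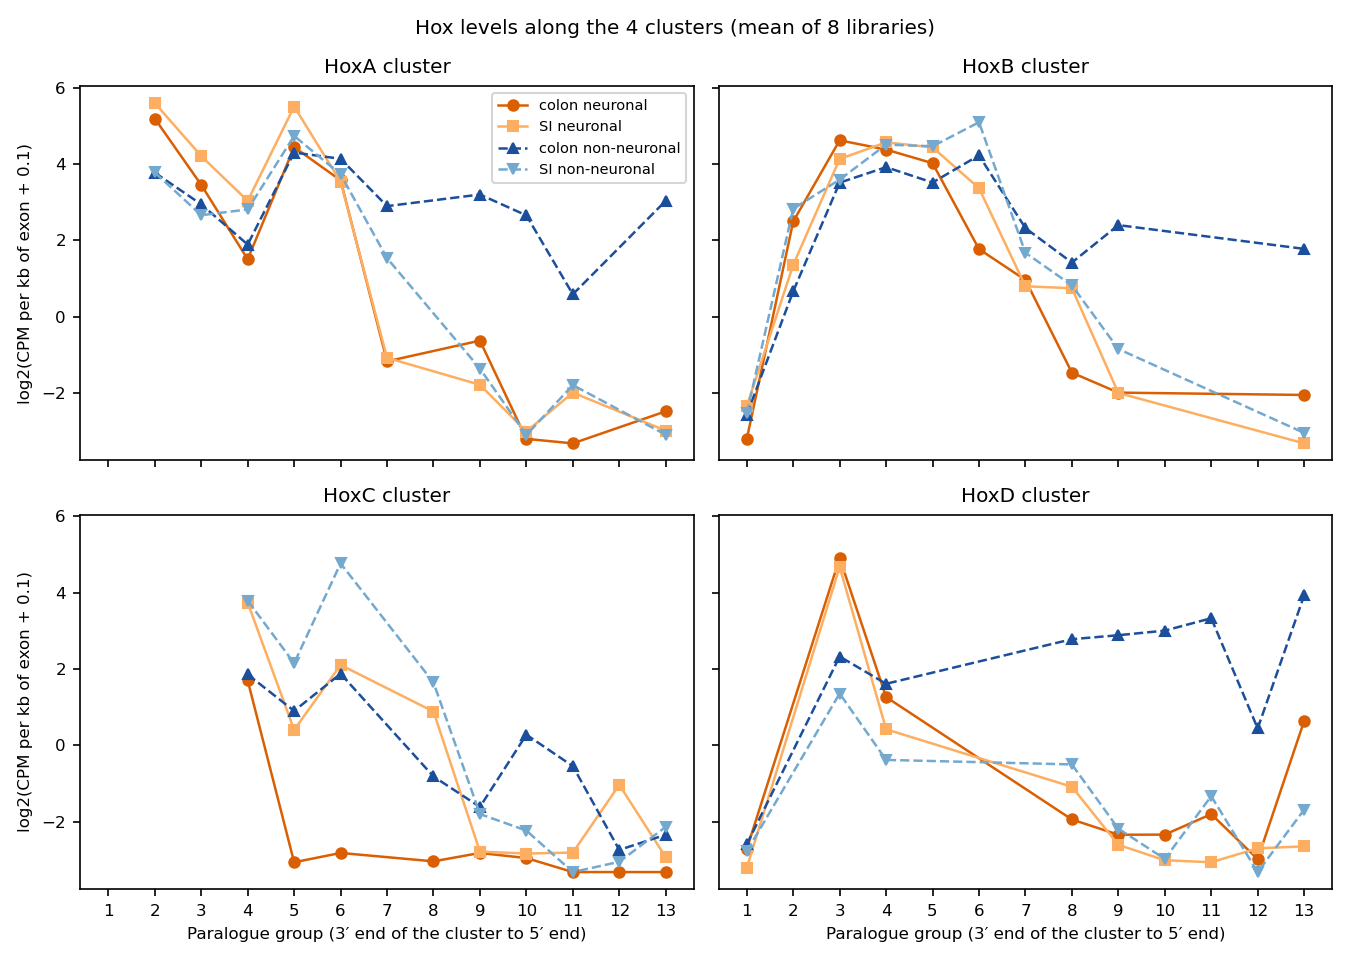
Mean level of each member along its cluster, from low to high paralogue number, in CPM per kilobase of exon. Each line is the mean over both facilities for neuronal or non-neuronal nuclei of colon or SI. In the colon and the SI neuronal line Hoxa7 lies below Hoxa6 and Hoxd4 below Hoxd3. In Hoxa, Hoxb and Hoxd, colon non-neuronal nuclei carry levels on to paralogue group 13.

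Between groups 5 and 8 the order turned. Along the Hoxa cluster, the level per kilobase of exon in Bern colon was 22.3 CPM per kb for Hoxa5, 19 for Hoxa6, 0.479 for Hoxa7 and 0.91 for Hoxa9 in neuronal libraries. In Bern colon non-neuronal libraries the same genes had 23.6, 26.6, 9.1 and 12.1 CPM per kb. By these Bern colon neuronal means the drop fell between Hoxa6 and Hoxa7. The Hoxa6 mean there came from libraries of 0.413 to 53.6 CPM. In Crick colon neuronal libraries the level was 21 CPM per kb for Hoxa5, 4.58 for Hoxa6 and 0.209 for Hoxa7, so it already fell before Hoxa7. Hoxa7, known for its part in the pattern of the trunk vertebrae, had 4.13, 0.271, 0 and 1.11 CPM in Bern colon neuronal libraries, against 26.9, 18.6, 27.1 and 32 CPM in Bern colon non-neuronal libraries. Bern SI gave 0.251, 0.218, 0.835 and 0.246 CPM in neuronal libraries, against 7.77, 3.17, 5.01 and 26.2 CPM in non-neuronal libraries. Crick colon gave 0.51, 0.219, 0.792 and 0.879 CPM in neuronal libraries, against 13.9, 14.3, 17.4 and 18.8 CPM in non-neuronal libraries. Crick SI gave 1.81, 3.3, 0 and 1.92 CPM in neuronal libraries, against 5.71, 4.25, 5.69 and 6.55 CPM in non-neuronal libraries. No library overlapped in any stratum, a pattern that 2.37% of all genes showed in this direction, and the log2 fold change was -3.87 ± 0.51 (adjusted p = 4.92e-08). Hoxa7 passed the filter through the non-neuronal libraries, so its direction and lack of overlap are a description.

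The Hoxc and Hoxb trunk genes went the same way. Hoxc6 had 0, 0.271, 0 and 0.279 CPM in Bern colon neuronal libraries, against 48, 0.866, 1.3 and 3.78 CPM in Bern colon non-neuronal libraries. Bern SI gave 26.6, 3.27, 2.92 and 0.738 CPM in neuronal libraries, against 43.4, 81.3, 36.7 and 148 CPM in non-neuronal libraries. In Crick, colon gave 0.255, 0, 0 and 0 CPM in neuronal libraries, against 3.71, 3.35, 5.34 and 2.52 CPM in non-neuronal libraries, and SI gave 12.2, 17.7, 7.73 and 9.88 against 55.9, 74.8, 45.1 and 37.9 CPM. Hoxc6 was the other member without overlap in any stratum, at a log2 fold change of -4.33 ± 0.56 (adjusted p = 3.63e-08). Its neighbours Hoxc5 and Hoxc8 changed by log2 values of -4.15 ± 0.71 and -2.68 ± 0.61 (adjusted p = 8.89e-06 and 0.000446), with means of 1.92 and 2.51 CPM in neuronal, against 9.45 and 4.96 CPM in non-neuronal libraries. Hoxb6 averaged 13.3 CPM in neuronal libraries and 51.8 CPM in non-neuronal libraries, a log2 change of -2.15 ± 0.41 (adjusted p = 4.45e-05). Hoxb7 averaged 2.69 and 6.17 CPM, with -1.83 ± 0.58 (adjusted p = 0.00928), and Hoxb8 2.42 and 5.58 CPM, with -1.85 ± 0.62 (adjusted p = 0.0148). Hoxd8 averaged 0.728 CPM in neuronal libraries and 10.1 CPM in non-neuronal libraries, with -4.30 ± 0.76 (adjusted p = 2.17e-05). The call for Hoxb8 rested on Bern colon non-neuronal replicate 2, the highest of its group at 25.8 CPM: without it the log2 change was -1.26 and the adjusted p 0.086.

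The posterior members were low in neuronal nuclei of both segments. In Bern colon neuronal libraries 10 of the 16 held no count in any of the 4 libraries, and in Bern SI neuronal libraries 11 of 16. No posterior member passed 15.3 CPM in any colon neuronal library or 8.23 CPM in any SI library of either sort. With colon taken alone, 16 members were lower and 3 higher in neuronal than in non-neuronal nuclei in Bern (background 25.2%) and 17 lower and 2 higher in Crick (background 18.6%). The 2 facilities shared 14 of these lower calls, 9 of them posterior: Hoxa9, Hoxa10, Hoxa11, Hoxa13, Hoxb9, Hoxd9, Hoxd10, Hoxd11 and Hoxd12. These members passed the filter through the colon non-neuronal libraries, so a difference there follows from the filter and the count supports nothing by itself. In SI, 5 members were lower and 3 higher in Bern (background 30.1%) and 1 lower and 2 higher in Crick (background 11.6%).

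Averaged over all 4 strata, 5 posterior members were called lower in neuronal nuclei. All 5 had their highest group means in colon non-neuronal libraries. Hoxb9, Hoxd10 and Hoxd11 passed the filter through those libraries, so their direction follows from the filter and is a description. Hoxa9 averaged 2.06 CPM in neuronal libraries and 26.2 CPM in non-neuronal libraries, a log2 change of -2.59 ± 0.65 (adjusted p = 0.00123). It lost its call without Bern SI non-neuronal replicate 1 (-1.8, adjusted p = 0.139). Hoxb9 averaged 0.388 and 7.25 CPM, with -3.44 ± 1.12 (adjusted p = 0.0122), Hoxd10 0.11 and 7.23 CPM, with -3.51 ± 0.88 (adjusted p = 0.00135), and Hoxd11 0.434 and 21.6 CPM, with -4.21 ± 0.85 (adjusted p = 8.78e-05). Hoxd13, the last gene of its cluster and a regulator of hindgut and limb ends, averaged 1.88 CPM in neuronal libraries and 19.1 CPM in non-neuronal libraries, with -3.0 ± 0.76 (adjusted p = 0.00145). For Hoxa10, Hoxa11, Hoxa13, Hoxb13 and Hoxd9 this average could not be estimated, because whole groups held no count, and the within-colon values stand in its place. Several of the groups behind Hoxb9, Hoxd8, Hoxd10 and Hoxd11 hold a count in 1 library only, and leaving that library out makes their average inestimable too. Where a neuronal group held no count, as for Hoxb9, Hoxc5, Hoxc8 and Hoxd8 in Bern colon, the fitted change depends on the prior count.

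Bern colon neuronal libraries held no count of Hoxa10, Hoxd9, Hoxb9 or Hoxb13, against Bern colon non-neuronal means of 24.1 CPM for Hoxa10, 16.7 CPM for Hoxd9, 10.5 CPM for Hoxb9 and 7.62 CPM for Hoxb13. Set against the floor of 3 counts over the group, Hoxa10 was at least 109.7-fold, Hoxd9 at least 75.8-fold, Hoxb9 at least 47.6-fold and Hoxb13 at least 34.6-fold lower in neuronal nuclei. Hoxd8, just outside the posterior groups, was at least 116-fold lower. Colon neuronal nuclei were not free of posterior RNA. Hoxd13 had 14.9, 4.87, 0 and 0.557 CPM in Bern and 2.29, 1.53, 0.264 and 4.54 CPM in Crick colon neuronal libraries, which is 13.7% and 5.67% of the mean in colon non-neuronal libraries. Hoxa9 had 15.3, 0, 3.08 and 1.95 CPM in Bern and 0, 0.876, 1.32 and 1.9 CPM in Crick colon neuronal libraries, or 7.52% and 3.02%. Beside these, the summed smooth muscle markers in colon neuronal libraries stood at 6.66% and 7.44%, and the fibroblast markers at 5.8% and 3.51%, of their level in colon non-neuronal libraries. Bern colon neuronal replicate 1, the highest for both genes, also had the highest smooth muscle sum of its group at 1342 CPM, against 562 to 937 CPM in the other 3. The part of muscle RNA in these posterior values was not tested.

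Colon and SI non-neuronal nuclei differed at the 5′ ends of the Hoxa, Hoxb and Hoxd clusters. Of 31 members tested, 13 were higher and 4 lower in colon than in SI (8 libraries a side, background 9.32% of 19164 genes, 5.79% higher and 3.54% lower). The 13 were Hoxd4, Hoxd8 and each of the 11 posterior members that passed the filter. All 13 passed it through the colon libraries, so their direction, count and lack of overlap are a description. Colon and SI libraries did not overlap in either facility for 8 of the 13: Hoxa9, Hoxa10, Hoxa13, Hoxd8, Hoxd9, Hoxd10, Hoxd11 and Hoxd13. That is a pattern of 2.09% of all genes, from which nothing is read for these members. In Bern alone 12 were higher and 4 lower (background 10.1%), and in Crick alone 4 were higher and 0 lower (background 0.256%). The 4 in Crick, Hoxa10, Hoxa13, Hoxd10 and Hoxd13, were also called in Bern. Without the 6 libraries that stood apart, 11 members were higher and 1 lower.

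Hoxa13, which the hindgut needs to form, had 26.1, 28.4, 27.1 and 37.8 CPM in Bern colon non-neuronal libraries, against 0, 0, 0 and 0 CPM in Bern SI non-neuronal libraries. Crick gave 14.6, 6.7, 6.9 and 12.7 CPM in colon and 0, 0.34, 0 and 0 CPM in SI non-neuronal libraries. Every colon library was above every SI library. Against the floor, colon was at least 142-fold higher in Bern, and the fitted log2 change over both facilities, which depends on the prior count where a group is at 0, was 8.06 ± 0.99 (adjusted p = 5.71e-05). Hoxd13 had 3.51, 9.31, 27.7 and 108 CPM in Bern colon non-neuronal libraries, against 0, 0.316, 0.278 and 2.71 CPM in Bern SI non-neuronal libraries. In Crick it had 78, 16.9, 26.5 and 30.8 CPM in colon and 0.736, 0, 0 and 0.139 CPM in SI non-neuronal libraries. The log2 change was 6.02 ± 0.91 (adjusted p = 0.00028), although the Bern colon values alone spread from 3.51 to 108 CPM. Hoxb13 had 0, 26.2, 0 and 4.28 CPM in Bern colon and no count in Bern SI non-neuronal libraries. In Crick it had 12.1, 0, 8.01 and 8.14 CPM in colon and 0.368, 0, 0 and 0 CPM in SI non-neuronal libraries. Colon libraries at 0 made the groups overlap for Hoxb13, which was called at 6.89 ± 1.59 (adjusted p = 0.0104) and not called without the libraries that stood apart (5.87, adjusted p = 0.0853).

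Paralogue groups 9 to 12 followed. Hoxd11 had 65.2, 28.8, 14.4 and 65.2 CPM in Bern colon non-neuronal libraries, against 0.647, 0, 0 and 0 CPM in Bern SI non-neuronal libraries. Crick gave 45.9, 63.1, 26.3 and 27.1 CPM in colon and 0.184, 0.51, 0.438 and 8.23 CPM in SI non-neuronal libraries, for a log2 change of 5.80 ± 0.82 (adjusted p = 0.000143). Hoxd10 had 10.1, 3.46, 21.9 and 9.57 CPM in Bern colon non-neuronal libraries, against 0, 0, 0 and 0.226 CPM in Bern SI non-neuronal libraries. Crick gave 18.1, 27.7, 12.7 and 11.7 CPM in colon and 0, 0.17, 0 and 0 CPM in SI non-neuronal libraries (7.15 ± 0.95, adjusted p = 6.79e-05). Hoxa9 averaged 50.8 CPM in colon and 1.61 CPM in SI non-neuronal libraries (4.64 ± 0.78, adjusted p = 0.000795), and one Bern colon library alone reached 194 CPM. Hoxa10 averaged 20.3 and 0.055 CPM (8.27 ± 1.09, adjusted p = 0.000111). It was at least 115-fold higher in Bern colon than in Bern SI. Hoxd9 averaged 15.6 and 0.256 CPM (6.85 ± 0.94, adjusted p = 0.00017) and was at least 79.4-fold higher in Bern colon. Hoxb9 averaged 13.3 CPM in colon and 1.17 CPM in SI non-neuronal libraries (4.59 ± 1.16, adjusted p = 0.015), a call lost without the libraries that stood apart (adjusted p = 0.0513).

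Hoxa11 and Hoxd12 were called on few counts. Hoxd12 had 1.95, 9.09, 0 and 0.756 CPM in Bern colon and 4.41, 2.42, 3.56 and 3.35 CPM in Crick colon non-neuronal libraries, and none of the 8 SI non-neuronal libraries held a count. Colon was at least 14-fold higher in Bern and at least 26.4-fold higher in Crick (fitted log2 change 6.78 ± 1.3, adjusted p = 0.00416), and the call was lost without the libraries that stood apart (adjusted p = 0.068). Hoxa11 averaged 3.2 CPM in colon and 0.431 CPM in SI non-neuronal libraries. Its call at 4.09 ± 1.25 (adjusted p = 0.0441) was lost in 14 of the 16 fits that left out 1 library, with adjusted p up to 0.0796, and 35.0% of its exon bases are shared with the antisense gene Hoxa11os. Hoxa11os itself averaged 19.6 CPM in colon and 0.356 CPM in SI non-neuronal libraries (5.25 ± 0.99, adjusted p = 0.00212). It also passed the filter through the colon libraries, so its direction is a description. Among anterior members, Hoxd8 averaged 18.6 CPM in colon and 1.67 CPM in SI (4.19 ± 0.86, adjusted p = 0.00398). Hoxd4 averaged 8.72 CPM in colon and 1.97 CPM in SI (4.53 ± 0.93, adjusted p = 0.00485), being at least 32-fold higher in Bern colon, while Hoxd3, with which it shares exons, was not called (0.99 ± 0.82, adjusted p = 0.512).

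**Figure D4:**
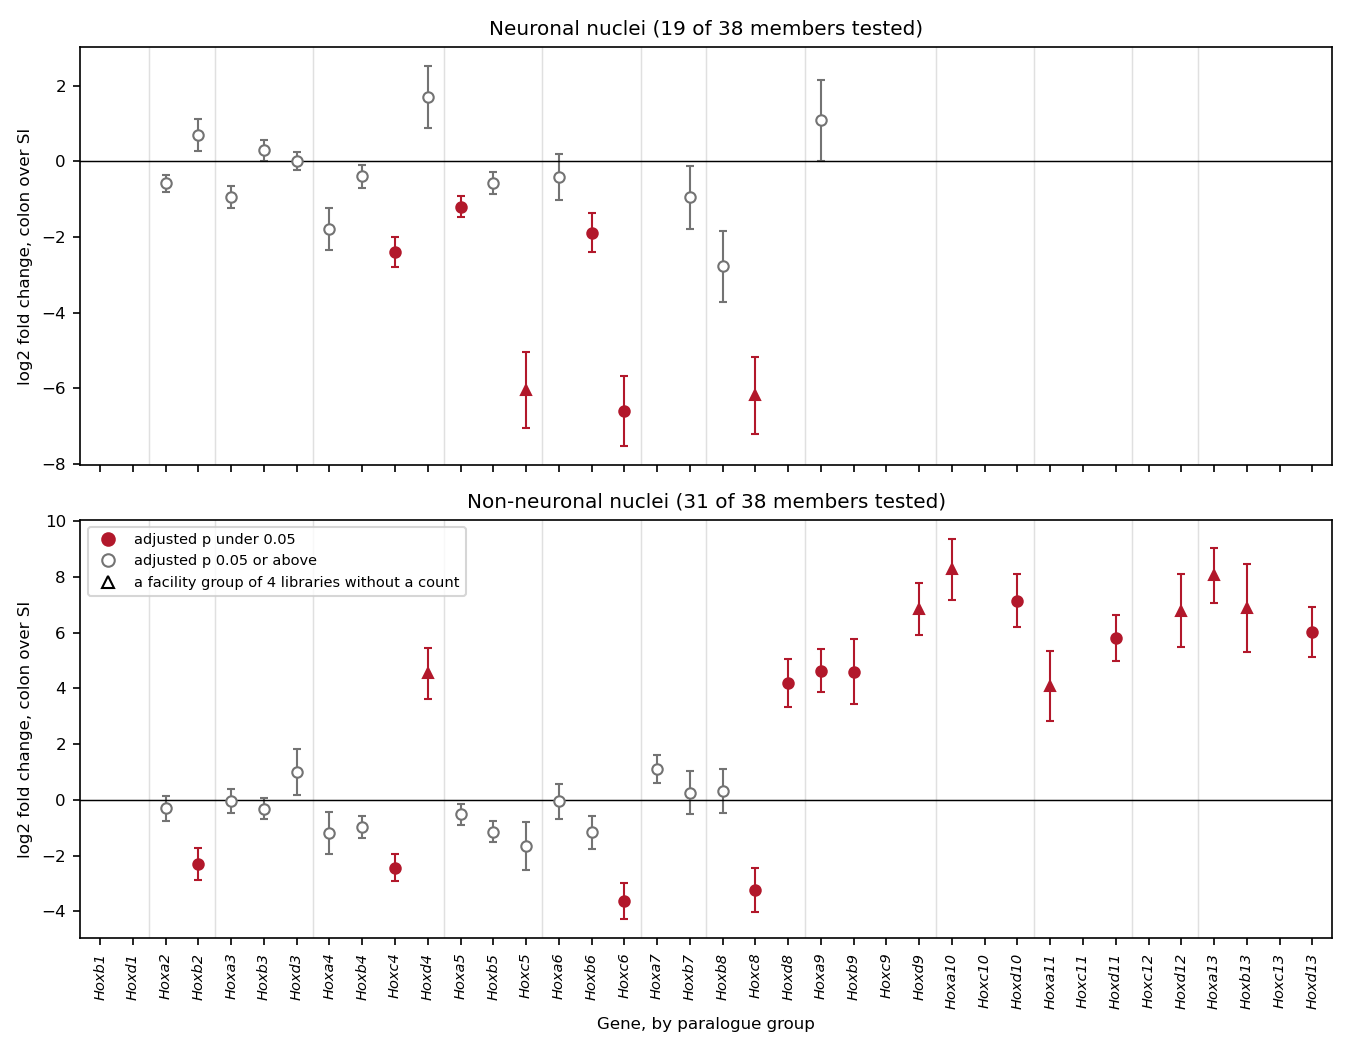
Log2 fold change of colon over SI for the tested members in neuronal and in non-neuronal nuclei, by cluster and paralogue number, with standard errors. In non-neuronal nuclei the tested posterior members lie above 4, and in neuronal nuclei Hoxc5, Hoxc6 and Hoxc8 lie below -6.

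The Hoxc cluster ran against this pattern. Its posterior members, Hoxc9 to Hoxc13, stayed at group means of at most 3.02 CPM in every group and did not pass the filter. Of its 4 anterior members, Hoxc4, Hoxc6 and Hoxc8 were lower in colon than in SI non-neuronal nuclei, and Hoxc5 was not called (-1.65 ± 0.86, adjusted p = 0.245). Hoxc6 had 48, 0.866, 1.3 and 3.78 CPM in Bern colon non-neuronal libraries, against 43.4, 81.3, 36.7 and 148 CPM in Bern SI non-neuronal libraries. Crick gave 3.71, 3.35, 5.34 and 2.52 CPM in colon and 55.9, 74.8, 45.1 and 37.9 CPM in SI non-neuronal libraries. The groups were apart in Crick and overlapped in Bern through colon replicate 1, and the log2 change was -3.63 ± 0.64 (adjusted p = 0.0013). Hoxc4 averaged 9.05 CPM in colon and 35.3 CPM in SI (-2.43 ± 0.49, adjusted p = 0.00379), and Hoxc8 1.32 and 8.59 CPM (-3.25 ± 0.79, adjusted p = 0.0123). Hoxb2, a hindbrain gene, averaged 5.17 CPM in colon and 24.4 CPM in SI (-2.29 ± 0.57, adjusted p = 0.0141). Hoxb2 and Hoxc8 were the 2 lower members without overlap in either facility, against 0.433% of all genes. Hoxc8 passed the filter through the SI non-neuronal libraries. Its direction and lack of overlap are therefore a description, and nothing is read from that share for it. Without the libraries that stood apart, Hoxb2 (-1.69, adjusted p = 0.218), Hoxc4 (-2.0, 0.0524) and Hoxc8 (-2.44, 0.134) were not called. The median log2 change of the 20 anterior members tested was -0.42, against 0.02 over all genes.

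Markers of other cells also differed between colon and SI non-neuronal libraries. Of 8 epithelial markers, 4 were higher and none lower in colon, and their sum was 1745 to 13036 CPM in Bern colon against 359.8 to 818 CPM in Bern SI, and 2642 to 9462 CPM in Crick colon against 161 to 1147 CPM in Crick SI. Muc2, the goblet cell mucin, averaged 5100.1 CPM in colon and 359 CPM in SI. The endothelial list had 6 of 8 and the pan-neuronal list 6 of 14 members higher in colon, 2 of 8 macrophage markers were higher, and 3 of 10 smooth muscle and 3 of 8 fibroblast markers were lower, with 1 fibroblast marker higher. Of 13 mitochondrially encoded genes, 10 were lower in colon. Their sum was 7484 to 12488 CPM in Bern colon against 19631 to 30695 CPM in Bern SI, and 4976 to 9806 CPM in Crick colon against 4365 to 26242 CPM in Crick SI non-neuronal libraries, and their part in the Hox differences was not tested. No epithelial marker was at 0 in any of these groups. In the 4 Bern colon non-neuronal libraries, epithelial sums of 1745, 13036, 2673 and 5412 CPM stood beside posterior sums of 407, 173, 155 and 291 CPM. In the 4 Crick colon non-neuronal libraries, epithelial sums of 2642, 3322, 7212 and 9462 CPM stood beside posterior sums of 256, 195, 150.04 and 228 CPM. The share of the posterior Hox RNA that came from epithelium rather than muscle or other mesenchyme was not tested.

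In neuronal nuclei the colon differed from the SI at the anterior end of the Hoxc cluster. Only 19 members passed the filter, 18 anterior ones and Hoxa9. None was higher and 6 were lower in colon neuronal than in SI neuronal nuclei (8 libraries a side), against 5.51% of 17419 genes called and 3.54% called lower. They were Hoxa5, Hoxb6, Hoxc4, Hoxc5, Hoxc6 and Hoxc8, so every tested Hoxc member was among them. In Bern alone 5 were lower (background 4.17%), and in Crick alone Hoxc4 and Hoxc6 were (background 0.913%). For the 4 Hoxc members the libraries did not overlap in either facility, a pattern of 1.06% of all genes. Hoxc5, Hoxc6 and Hoxc8 passed the filter through the SI neuronal libraries. Their direction, count and lack of overlap are therefore a description, and nothing is read from that share for them. The median log2 change of the 18 anterior members was -0.95, against -0.01 over all genes, and it is the same with the members that were at 0 in Bern colon set to their bound.

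Hoxc4 had 18.6, 13.8, 5.64 and 4.18 CPM in Bern colon neuronal libraries, against 38.2, 36.2, 35.5 and 42.5 CPM in Bern SI neuronal libraries. Crick gave 3.57, 2.63, 10.3 and 6 CPM in colon and 20.8, 42.1, 20.7 and 36.6 CPM in SI neuronal libraries. All 8 colon libraries were below all 8 SI libraries, at a log2 change of -2.39 ± 0.40 (adjusted p = 0.000618). Hoxc6 had 0, 0.271, 0 and 0.279 CPM in Bern colon neuronal libraries, against 26.6, 3.27, 2.92 and 0.738 CPM in Bern SI neuronal libraries. In Crick it had 0.255, 0, 0 and 0 CPM in colon and 12.2, 17.7, 7.73 and 9.88 CPM in SI neuronal libraries. Colon was again below SI in every library, with -6.60 ± 0.92 (adjusted p = 7.43e-05). Hoxc5 and Hoxc8 held no count in Bern colon neuronal libraries, where they were at least 17.8-fold and at least 34.6-fold lower than in Bern SI. Over both facilities Hoxc5 averaged 0.06 CPM in colon and 3.78 CPM in SI neuronal libraries (-6.05 ± 1.00, adjusted p = 0.000778), and Hoxc8 0.06 and 4.95 CPM (-6.18 ± 1.01, adjusted p = 0.000749). Hoxa5, a regulator of lung and gut development, averaged 40.6 CPM in colon and 85.2 CPM in SI neuronal libraries (-1.20 ± 0.29, adjusted p = 0.0129). Hoxb6 averaged 6.5 CPM in colon and 20.1 CPM in SI (-1.89 ± 0.51, adjusted p = 0.0299), and 8 of the 16 fits that left out 1 library lost its call, with adjusted p up to 0.0814.

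Hoxa2, Hoxa3, Hoxb3, Hoxb4, Hoxb5 and Hoxd3 were not called between segments in neuronal nuclei. Hoxd3 averaged 126 CPM in colon and 107 CPM in SI neuronal libraries (0.01 ± 0.23, adjusted p = 0.985), and Hoxa2 64.7 and 85.9 CPM (-0.58 ± 0.21, adjusted p = 0.123). Hoxa9 had 0 to 15.3 CPM in colon and 0 to 3.3 CPM in SI neuronal libraries and was not called (1.08 ± 1.07, adjusted p = 0.65). Hoxd13, untested in neurons, had no count in Bern SI neuronal libraries and was at least 25.4-fold higher in Bern colon, where replicate 1 supplied most of it.

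Markers of interstitial cells of Cajal, which set the slow rhythm of gut muscle, moved with the Hoxc members. All 5 of this list were lower in colon neuronal than in SI neuronal nuclei, and their sum was 346 to 504 CPM in Bern colon against 727 to 2408 CPM in Bern SI, and 279.9 to 406 CPM in Crick colon against 1208 to 1953 CPM in Crick SI. Kit averaged 7.72 CPM in colon and 334 CPM in SI neuronal libraries (-5.55 ± 0.60, adjusted p = 2.89e-06), and Gpr20 was at 0 in Bern colon neuronal libraries. Bern SI neuronal replicate 1 had both the highest sum of this list, 2408 CPM, and the highest summed level of Hoxc5, Hoxc6 and Hoxc8, 52.2 CPM, against 2.71 to 16.8 CPM in the other 3 of its group. The other libraries did not follow that order: Bern SI neuronal replicate 4, second in the list at 849 CPM, had the lowest Hoxc sum at 2.71 CPM. In Crick SI neuronal libraries, list sums of 1953, 1208, 1407 and 1506 CPM stood beside Hoxc sums of 20.1, 22.2, 13.4 and 15.5 CPM. In non-neuronal SI libraries the 3 genes summed to 45.6 to 169 CPM, while the list stood at 183 to 1116 CPM. Of 13 mitochondrially encoded genes, 10 were also lower in colon neuronal nuclei. The part of other cells' RNA in the Hoxc values of SI neuronal libraries was not tested. Pan-neuronal markers were not called in either direction (0 of 14).

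**Figure D5:**
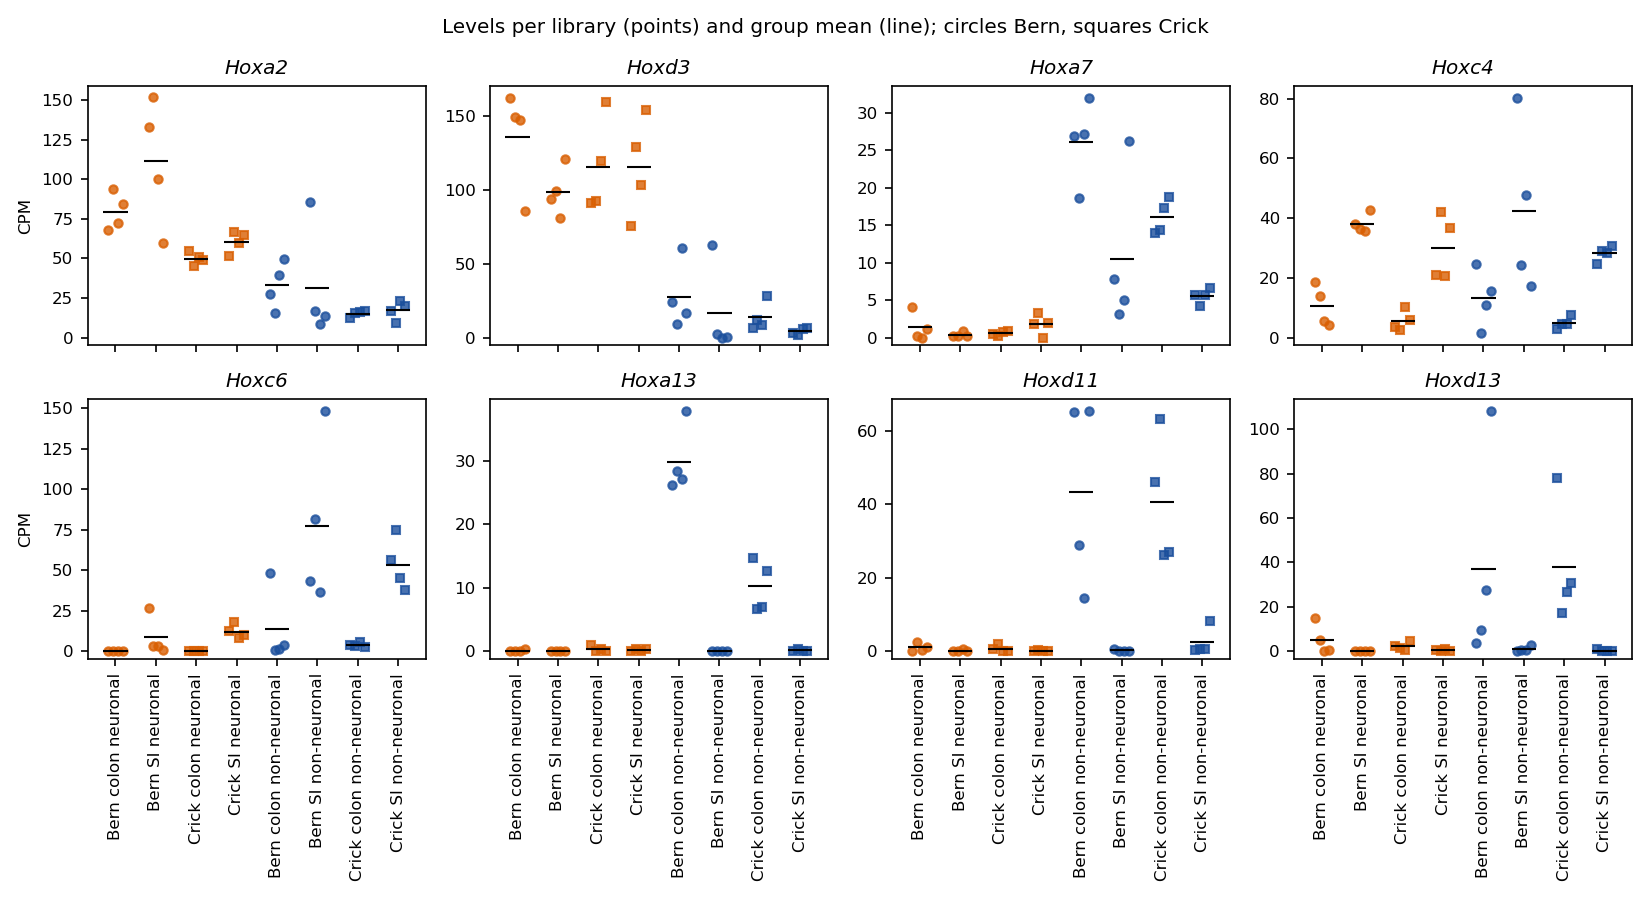
CPM per library of Hoxa2, Hoxd3, Hoxa7, Hoxc4, Hoxc6, Hoxa13, Hoxd11 and Hoxd13 in the 8 groups, each point 1 library and each bar the group mean. Hoxd3 is high in all neuronal groups, Hoxc4 and Hoxc6 are low in colon neuronal libraries, and Hoxa13, Hoxd11 and Hoxd13 are high in colon non-neuronal libraries.

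Whether the colon to SI difference itself differed between neuronal and non-neuronal nuclei was tested by an interaction term. It was called for 4 members, 1 higher and 3 lower (background 6.48%). Hoxb2 averaged 19.3 CPM in colon and 8.58 CPM in SI neuronal libraries, and 5.17 CPM in colon and 24.4 CPM in SI non-neuronal libraries. The interaction was 2.97 ± 0.71 (adjusted p = 0.00836), with the neuronal difference alone not called (0.69 ± 0.43, adjusted p = 0.41), and it lost its call without the libraries that stood apart (2.41, adjusted p = 0.0929). Hoxb9 averaged 0.39 CPM in colon and 0.387 CPM in SI neuronal libraries, beside its non-neuronal means above, and its term was -5.97 ± 1.78 (adjusted p = 0.0372). That call was lost with limma-voom and in 11 of the 32 fits that left out 1 library, and without Bern SI neuronal replicate 2 its term and that of Hoxd12 were inestimable. Hoxd12 averaged 0.067 and 0.136 CPM in the same groups, with -7.78 ± 1.93 (adjusted p = 0.0131), and lost its call without the libraries that stood apart (-5.35, adjusted p = 0.115). Hoxb9 and Hoxd12 passed the filter through the colon non-neuronal libraries and were low elsewhere, so the sign of their terms follows from the filter and is a description. Hoxc5 averaged 0.06 CPM in colon and 3.78 CPM in SI neuronal libraries, and 5.46 and 13.4 CPM in non-neuronal libraries. Its term was -4.45 ± 1.35 (adjusted p = 0.0402), and without Bern colon non-neuronal replicate 3, which alone held 29.5 CPM, it was -2.21 (adjusted p = 0.213). Its call was lost in 16 of the 32 such fits. For Hoxa10, Hoxa11, Hoxa13, Hoxb13, Hoxd8, Hoxd9 and Hoxd10 the term could not be estimated, because whole groups were at 0.

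Members were also compared between the facilities. Of 19 tested in neuronal nuclei, 1 member was higher and 2 lower in Bern than in Crick (background 7.72%). Of 31 tested in non-neuronal nuclei, 1 was higher and 1 lower (background 9.29%). From so few calls nothing is read about the members as a set. Hoxa2 averaged 95.3 CPM in Bern and 55.2 CPM in Crick neuronal libraries (0.73 ± 0.21, adjusted p = 0.0378). Hoxd4 averaged 1.42 CPM in Bern and 9.03 CPM in Crick neuronal libraries (-3.35 ± 0.86, adjusted p = 0.0191), and 3.35 and 7.34 CPM in non-neuronal libraries (-4.02 ± 0.92, adjusted p = 0.00941). Bern SI non-neuronal libraries held no count of Hoxd4, so the non-neuronal value depends on the prior count. That call was lost without the libraries that stood apart (adjusted p = 0.068). Gm28230 and Hoxd3os1, which share exon bases with Hoxd4, were also lower in Bern non-neuronal nuclei. Hoxb7 averaged 0.793 CPM in Bern and 4.58 CPM in Crick neuronal libraries (-2.87 ± 0.88, adjusted p = 0.0461), but without Crick colon neuronal replicate 4, which alone had 19.5 CPM, the change was -1.43 (adjusted p = 0.274). Hoxa5 averaged 60.7 CPM in Bern and 26 CPM in Crick non-neuronal libraries (1.25 ± 0.39, adjusted p = 0.0451). The calls for Hoxa2, Hoxa5 and Hoxb7 were lost in 9, 11 and 14 of 16 fits that left out 1 library. Hoxd4 in both sorts and Hoxb7 in neuronal nuclei passed the filter through the Crick libraries, so their lower direction in Bern is a description. Facility is confounded with library depth, since Crick libraries were deeper. The colon to SI difference did not pass the test of a difference between facilities for any member. Of 19 in neuronal nuclei edgeR called 0, with 0 at an unadjusted p under 0.05 (6.51% of all genes) and 0 by DESeq2. Of 31 in non-neuronal nuclei it called 0, with 4 at an unadjusted p under 0.05 (10.5% of all genes) and 2 by DESeq2. Over all genes that test called 0.00574% in neuronal and 0% in non-neuronal nuclei.

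Genes that lie between the Hox genes or just outside the clusters also differed. Haglr, a non-coding gene that shares a few exon bases with Hoxd3 on the other strand, averaged 19.9 CPM in neuronal libraries and 1.5 CPM in non-neuronal libraries (4.50 ± 0.49, adjusted p = 1.07e-09). Of 22 tested neighbours of the 4 clusters, 5 were higher and 6 lower in neuronal nuclei, near the background of 43.5% called. Skap2 and Snx10 beside Hoxa were higher at 1.17 ± 0.20 and 2.18 ± 0.26, Skap1 beside Hoxb at 3.16 ± 0.42, Hnrnpa1 beside Hoxc at 0.62 ± 0.26 and Lnpk beside Hoxd at 0.90 ± 0.24. The lower ones were Hibadh, Tax1bp1, Ttll6, Atp5g2, Hnrnpa3 and Nfe2l2. Between colon and SI non-neuronal nuclei, Evx2, the homeobox gene next to Hoxd13, averaged 4.12 CPM in colon and 0.066 CPM in SI (5.75 ± 1.11, adjusted p = 0.00331). Evx2 passed the filter through the colon libraries, so its direction is a description. Ttll6, outside the 5′ end of Hoxb, averaged 27.4 CPM in colon and 2.66 CPM in SI (3.44 ± 0.80, adjusted p = 0.00908), and Gm53, inside it, 34.3 and 2.66 CPM (3.38 ± 1.00, adjusted p = 0.0352). None of the 4, 5 or 6 tested neighbours of a cluster was called between colon and SI in neuronal nuclei.

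RNA of PBX, MEIS and PKNOX genes, which encode the TALE cofactors that bind DNA with HOX proteins, differed between the sorts. Meis3, Pbx4 and Pknox1 were higher and Meis2, Pbx3 and Pknox2 lower in neuronal nuclei. Meis2 averaged 81.4 CPM in neuronal libraries and 591 CPM in non-neuronal libraries (-4.19 ± 0.29, adjusted p = 1.03e-14). In neuronal nuclei it averaged 6.09 CPM in colon and 157 CPM in SI (-4.89 ± 0.51, adjusted p = 1.68e-06), beside the markers of interstitial cells described above, and in non-neuronal nuclei 422 and 761 CPM (-1.17 ± 0.20, adjusted p = 0.000978). Pknox1 went the other way in neurons, at 85.2 CPM in colon and 34 CPM in SI (1.18 ± 0.30, adjusted p = 0.0183). The caudal factor Cdx1, which acts upstream of posterior Hox genes in the embryo and marks gut epithelium in the adult, averaged 15.9 CPM in colon and 0.773 CPM in SI non-neuronal libraries (6.12 ± 1.2, adjusted p = 0.00379). Cdx1 passed the filter through the colon libraries, so its direction is a description.

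Of 12 retinoic acid genes, a pathway that induces anterior Hox genes, 8 were tested between the sorts, and 5 were lower and none higher in neuronal nuclei, against 21.6% and 21.9% of all genes. Aldh1a2, which makes retinoic acid, averaged 1.34 CPM in neuronal libraries and 15.9 CPM in non-neuronal libraries (-4.74 ± 0.55, adjusted p = 4.23e-09). It averaged 6.36 CPM in colon and 25.5 CPM in SI non-neuronal libraries (-2.24 ± 0.62, adjusted p = 0.0257). Between colon and SI neuronal nuclei, Aldh1a1 and Aldh1a2 were lower in colon and Aldh1a3 was higher, at 12.5 CPM in colon and 3.71 CPM in SI (1.75 ± 0.43, adjusted p = 0.0167). Aldh1a1 and Aldh1a2 passed the filter through the SI neuronal libraries, so their direction is a description. Among 14 Polycomb genes, which keep Hox clusters silent, 4 were higher (Cbx7, Ezh1, Phc1, Phc2) and 1 lower (Suz12) in neuronal nuclei, a smaller share than the 43.5% of all genes called, and none was called between colon and SI in either sort. Phc1 averaged 123 CPM in neuronal libraries and 43.6 CPM in non-neuronal libraries (1.42 ± 0.24, adjusted p = 5.63e-06). Kmt2a, which keeps Hox genes active, was the 1 of 5 activators and demethylases called, at 1491 CPM in neuronal libraries and 699.9 CPM in non-neuronal libraries (1.03 ± 0.15, adjusted p = 3.11e-07). Of 10 regional gut factors, 9 were tested between the sorts and 7 were lower in neuronal nuclei, against the same 21.6%. In the fit of the neuronal libraries alone only 3 of the 10 passed the filter, against 8 in that of the non-neuronal libraries. The lower direction of most of them thus follows from the filter, and nothing is read from that share. Gata4, a factor of small-intestinal epithelium, averaged 0.412 CPM in colon and 4.12 CPM in SI non-neuronal libraries (-4.95 ± 1.28, adjusted p = 0.0199). Gata4 passed the filter through the SI libraries, so its direction is a description.

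The 7 members that passed no filter were Hoxb1, Hoxd1, Hoxc9, Hoxc10, Hoxc11, Hoxc12 and Hoxc13. Hoxb1 and Hoxd1 had at most 1.37 and 0.744 CPM in any library. By group mean Hoxc10 was the highest, with 3.94, 5.21, 0.668 and 2.27 CPM in Crick colon non-neuronal libraries. Counted by group mean, 15 members reached 2 CPM in Bern colon neuronal, 30 in Bern colon non-neuronal, 16 in Bern SI neuronal and 18 in Bern SI non-neuronal libraries. In Crick they were 15 in colon neuronal, 32 in colon non-neuronal, 19 in SI neuronal and 23 in SI non-neuronal libraries. Libraries of a group varied most in Bern colon non-neuronal nuclei, where the median coefficient of variation of the 27 members with at least 5 CPM was 91.6%, against 71.9% for all genes in that range. It was least in Crick SI non-neuronal nuclei, at 30.0% for 16 members, against 36.9% for all genes.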

How the data were processed

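For the 32 libraries, 1 table of RSEM expected counts, by Ensembl gene, was deposited by the authors. Per the submitters' processing notes, RSEM 1.3.0, STAR 2.5.2 and DESeq2 1.10.1 were used, with GRCm38. Per the labels' protocols, cDNA was made with the NuGEN Ovation kit and read as single 75 bp ends. Values were rounded to whole counts (10.8% were not whole). Identifiers were joined to GENCODE M21 symbols, and 51719 of 51912 matched. CPM is a count scaled to a library total of 1000000, and fold changes use TMM scaling.

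The comparisons were fitted in edgeR 4.0.16 (R 4.3.3, quasi-likelihood test, filterByExpr, Benjamini-Hochberg threshold 0.05): the sorts in all 32 libraries (21521 genes), colon against SI and Bern against Crick in the 16 neuronal (17419) or 16 non-neuronal libraries (19164). A standard error is the fold change over the root of F. The script was tested on simulated data. DESeq2 1.42.0, limma 3.58.1 (voom) and other settings were alternatives. Named members pass the threshold and average at least 2 CPM on their higher side. Non-members come from lists. The members and lists were chosen with earlier results of these data known. The symbol rule matches 39 genes, of which 1 is not reported here. No pair of replicates agreed within sampling noise.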

Additional observations from a re-analysis of the deposited data

Results flagged for a closer look

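Each library below was the highest of its 4 by more than Dixon's 95% criterion for 4 samples, which 14 of 135 member and group sets met (10.4%). The criterion flags about 1 in 20 only where values are normally distributed. It was applied here to untransformed CPM, so the 10.4% cannot be set against chance. Bern colon non-neuronal libraries gave 5 of the 14: Hoxb13 at 26.2 CPM and Hoxb8 at 25.8 CPM in replicate 2, Hoxc5 at 29.5 CPM in replicate 3, and Hoxc6 at 48.0 CPM and Hoxd9 at 39.4 CPM in replicate 1. Bern SI non-neuronal replicate 1 stood out for Hoxa2 at 85.8 CPM and Hoxd3 at 62.5 CPM, and its pan-neuronal sum was 725 CPM. Bern SI neuronal replicate 1 stood out for Hoxc6 at 26.6 CPM, beside its interstitial cell sum of 2408 CPM. Crick colon neuronal replicate 4 stood out for Hoxb7 at 19.5 CPM and Hoxd4 at 27.7 CPM. Crick SI neuronal replicate 1 had Hoxc5 at 5.0 CPM, Crick colon non-neuronal replicate 4 had Hoxa5 at 38.6 CPM and Hoxb6 at 109.6 CPM, and Crick SI non-neuronal replicate 4 had Hoxd11 at 8.2 CPM.

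The colon to SI difference of 4 members differed between neuronal and non-neuronal nuclei by the interaction term: Hoxb2 by a log2 value of 2.97, Hoxb9 by -5.97, Hoxc5 by -4.45 and Hoxd12 by -7.78.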

How the results depend on the processing

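Of 49 results for 27 named members, 0 reversed. Under every alternative that tested them, 27 kept their direction and their side of the threshold. With any single library left out, 35 kept them in every fit that tested them. Among these, Hoxc8 between colon and SI in neuronal nuclei was tested in only 14 of the 16 such fits. The number of members called moved by over 1.5 times in these cases, and the cause was not tested. Colon against SI in neuronal nuclei gave 10 with DESeq2, in place of 6. Bern against Crick gave 1 with a replicate block in neuronal nuclei, in place of 3, and in non-neuronal nuclei, in place of 2, it gave 4 without a filter, 1 with limma-voom, 1 with the replicate block and 0 without the 6 libraries that stood apart. The segment by sort interaction gave 10 with DESeq2 and 8 with limma-voom, in place of 4. The segment by facility interaction in non-neuronal nuclei gave 2 with DESeq2, in place of 0. Leaving out 1 library gave 15 to 17 for neuronal against non-neuronal nuclei, 5 to 8 and 16 to 19 for colon against SI in neuronal and non-neuronal nuclei, 1 to 3 for Bern against Crick in either sort, 1 to 7 for the segment by sort interaction and 0 for both segment by facility interactions. Leaving out the 6 libraries, chosen after the data were seen, ended 16 of the 49 calls. DESeq2 size factors moved the median of all genes between the sorts to -0.11, against -0.01 with TMM, and no named member changed direction.

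The labels do not say whether equal replicate numbers mark the same animal. Deviations of same-numbered neuronal and non-neuronal libraries correlated by -0.002 to 0.487 (6 of 16 pairs over 0.1, against 4 of 48 pairs with different numbers). Those of colon and SI libraries correlated by -0.323 to 0.251 (2 of 16, against 6 of 48). Between the sorts, same-numbered pairs thus passed 0.1 more often than other pairs, and the main test leaves any such pairing out. With the replicate block, 17 members were called between the sorts, 7 and 16 between colon and SI in neuronal and non-neuronal nuclei, and 3 in the segment by sort interaction. Bern totals of 2394513 to 4618395 counts limit what can be said of members under a few CPM there.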
